A study of Rattus norvegicus with 24 samples.

Results

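The genes described here were 44 genes of the lysosome, the acid compartment in which a cell breaks down proteins, glycans and lipids. They were listed by gene name and role, without a threshold on measured values, though with earlier results of these data known. They comprised 11 cathepsins and other proteases, 13 glycosidases and sulfatases, 7 lipid hydrolases, activators and sterol transfer proteins, 8 membrane proteins, and 5 sorting receptors and regulators. Of the 44, 42 had a row in the expression tables, and all 42 passed the filter on low counts that left 12778 of 17334 genes for testing. Naglu and Ids were not analysed here. The list names 3 genes, Ctss, Ctsk and Laptm5, as rich in leukocytes, and these were set against the other 39 members, which are also made by epithelial cells.

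Samples were left kidneys of 24 male PKD/Mhm (Cy/+) rats, 6 in each of 4 groups, aged 8 months. All animals, controls included, were heterozygous for the Cy allele, a missense change in Anks6 that leads to cystic kidneys, and carriers had been found by palpation. The Ctrl animals were untreated. The CoCM animals received medium conditioned by ABCB5+ stromal cells from human skin grown together with macrophages made from the THP-1 line and activated by IFN-γ plus LPS, and the sources used here differ on whether it was given intraperitoneally or intravenously. The animals of i.p. ABCB5+ received the human cells themselves intraperitoneally, and those of i.v. ABCB5+ intravenously. Treatment was monthly over 6 months. By their labels the Ctrl animals were numbered within 1 to 24 and the rest within 26 to 43, so order and treatment cannot be told apart where Ctrl is compared.

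Lysosomal enzymes are made in the endoplasmic reticulum, tagged with mannose 6-phosphate in the Golgi and carried to the lysosome by the receptors M6pr and Igf2r. TFEB, a transcription factor, binds a palindrome known as the CLEAR element near the start of many lysosomal genes and raises their transcription. In the kidney the proximal tubule, which takes up filtered protein by endocytosis, is rich in lysosomes, and so are macrophages, which express cathepsin S and LAPTM5, while cathepsin K is known from osteoclasts, macrophages and activated fibroblasts.

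Promoter sequences (from 250 bases before to 50 bases after the start of the gene, RefSeq, GRCr8) were found for 36 of the 44 members. TCACGTGA, the core of the CLEAR element, stood in 5 of these 36 promoters (13.9%), those of Lamp1, Igf2r, Mcoln1, Ctsd and Cln3, and in 0.867% of all 27457 promoters. CACGTG, the E-box that lies within that core, stood in 9 member promoters (25.0%) and in 6.65% of all. GAGGAAGT, a core bound by the myeloid factor PU.1, stood in 3 (8.33%), those of Ctss, Ctsc and Gla, and in 2.44% of all. Both strands were searched. A match describes letters in this window and is not a measured binding site. The promoters below are those of 4 carriers of the CLEAR core whose levels followed the proximal tubule markers in one direction or the other, and that of Ctss, whose level followed the leukocyte markers. Capitals mark matches to TCACGTGA, CACGTG or GAGGAAGT on either strand.
Lamp1 (chr16:83075014-83075313, minus strand): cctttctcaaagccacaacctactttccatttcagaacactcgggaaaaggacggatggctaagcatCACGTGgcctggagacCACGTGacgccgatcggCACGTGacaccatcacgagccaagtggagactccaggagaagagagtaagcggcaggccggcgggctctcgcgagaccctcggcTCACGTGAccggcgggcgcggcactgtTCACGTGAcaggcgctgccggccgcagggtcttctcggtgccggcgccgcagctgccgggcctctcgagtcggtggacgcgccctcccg
Igf2r (chr1:50526628-50526927, plus strand): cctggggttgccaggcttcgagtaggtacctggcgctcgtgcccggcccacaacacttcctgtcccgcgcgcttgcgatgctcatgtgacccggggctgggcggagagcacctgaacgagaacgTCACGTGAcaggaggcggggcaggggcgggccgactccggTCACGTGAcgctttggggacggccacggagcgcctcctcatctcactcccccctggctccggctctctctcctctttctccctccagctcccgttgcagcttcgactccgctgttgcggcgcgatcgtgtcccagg
Mcoln1 (chr12:6358008-6358307, plus strand): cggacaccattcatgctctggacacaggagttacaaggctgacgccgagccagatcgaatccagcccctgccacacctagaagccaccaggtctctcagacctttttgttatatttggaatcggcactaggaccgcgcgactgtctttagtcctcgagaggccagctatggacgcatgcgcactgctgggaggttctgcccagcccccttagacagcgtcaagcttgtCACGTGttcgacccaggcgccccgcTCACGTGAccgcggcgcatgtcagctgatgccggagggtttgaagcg
Ctsd (chr1:206968772-206969071, minus strand): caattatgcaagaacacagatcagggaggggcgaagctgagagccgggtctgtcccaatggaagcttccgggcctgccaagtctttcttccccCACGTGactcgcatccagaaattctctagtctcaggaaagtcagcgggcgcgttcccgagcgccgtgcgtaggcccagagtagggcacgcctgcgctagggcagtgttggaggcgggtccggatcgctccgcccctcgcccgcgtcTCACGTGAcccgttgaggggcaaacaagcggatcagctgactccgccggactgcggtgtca
Ctss (chr2:185775146-185775445, plus strand): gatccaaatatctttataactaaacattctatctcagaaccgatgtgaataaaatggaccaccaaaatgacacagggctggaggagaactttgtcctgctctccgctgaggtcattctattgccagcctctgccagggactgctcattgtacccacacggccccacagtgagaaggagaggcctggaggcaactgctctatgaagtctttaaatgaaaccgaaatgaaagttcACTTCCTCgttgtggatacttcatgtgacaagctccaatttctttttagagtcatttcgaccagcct
With the first base of the gene counted as 0, the CLEAR cores began at -66 and -39 in Lamp1, which encodes a major glycoprotein of the lysosomal membrane, and at -126 and -86 in Igf2r. The core began at -11 in Ctsd and at 3 in Mcoln1, within the first bases of the gene. In Ctss the PU.1 core began at -17 and read in the opposite direction.

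Total counts ranged from 9304630 to 14125457 per animal. CPM values below are counts scaled to library size and are compared only between animals. TPM values are scaled to transcript length as well and are used to compare genes. Markers of the labelled tissue were present, as all 16 proximal tubule markers had a count in every animal. On the first principal component of all genes tested (56.3% of the variance), animal 39 of CoCM, animal 38 of i.p. ABCB5+ and animals 36 and 37 of i.v. ABCB5+ lay between 80.8 and 97.4, and the other 20 lay between -53 and 11.5. The summed CPM of 20 leukocyte markers was 255.6 to 570.1 in these 4 animals and 1121 to 2591 in the others. For 10 fibroblast and pericyte markers it was 246.2 to 727.0 against 934.1 to 3934, and for 8 markers of injured tubule 630.3 to 1074.5 against 8354 to 16246. For 16 proximal tubule markers it was 14801 to 27806 against 3419 to 12418. No marker of these 4 lists was at 0 in any animal. For most group comparisons below, values without these 4 animals are given as well. In whole tissue, fewer cells of a type and less RNA per cell cannot be told apart.

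The members differed widely in level. Ctsd, the aspartyl protease cathepsin D, was highest with a mean of 1832.5 TPM over the 24 animals, followed by the cysteine proteases Ctsl (1714 TPM) and Ctsb (1399 TPM), by the tetraspanin Cd63 (1289.6 TPM) and by Ctsh (1254.5 TPM). Lamp1 (918.3 TPM) and Psap (897.3 TPM), the precursor of the saposins that present sphingolipids to their hydrolases, came next. The lowest were the cholesterol exporter Npc1 (12.5 TPM), the β-glucuronidase Gusb (28.3 TPM), Ctsk (31.5 TPM) and Igf2r (32.7 TPM). Cathepsins and other proteases made up 56.4% of the members' summed TPM, membrane proteins 22.7%, lipid enzymes and activators 11.6%, glycosidases and sulfatases 6.57%, and sorting receptors and regulators 2.80%. The members together took 1.17% to 1.83% of all TPM in an animal, with the lowest shares in animals 36 (1.17%), 37 (1.21%) and 39 (1.21%).

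A few members varied far more between animals than the rest. The ratio of the highest to the lowest CPM over the 24 animals was 17.0 for Laptm5, 9.39 for Ctss, 8.95 for Ctsk and 8.90 for Ctsz, the carboxypeptidase cathepsin Z. It was 6.56 for M6pr. At the other end it was 1.22 for the α-mannosidase Man2b1 and 1.32 for Tpp1, the tripeptidyl peptidase. For Laptm5, Ctss, Ctsk and Ctsz the lowest value was that of animal 39. Over the 20 animals other than 36 to 39 they ran from 115.4 to 282.3, 77.8 to 211.6, 16.4 to 55.0 and 64.8 to 152.9 CPM. M6pr, whose extremes lay in other animals, kept its range of 20.2 to 132.3 CPM. The biological coefficient of variation within groups, estimated gene by gene, had a median of 0.189 over the members and 0.206 over all genes tested. Laptm5 (0.615) lay at percentile 94.4 of all genes and was the only member above percentile 90. Ctsz, Ctsk, Ctss and M6pr lay between percentiles 84.6 and 89.1. This estimate included animals 36 to 39.

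**Figure D1:**
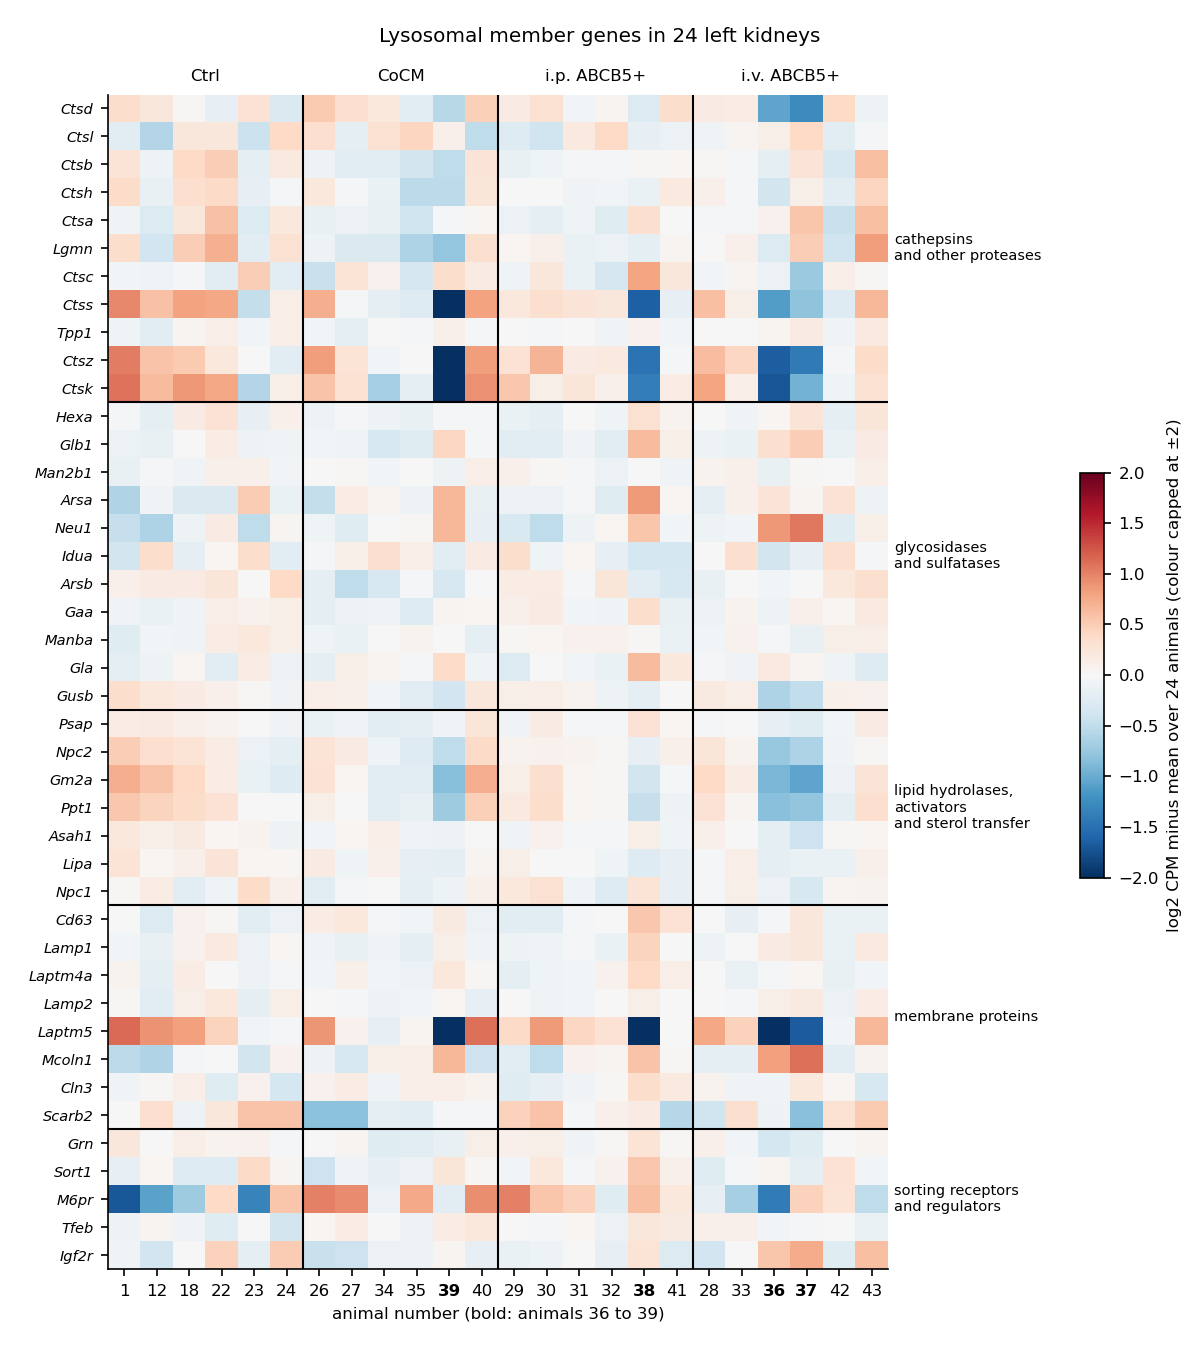
Level of each of 42 members (rows, in 5 classes, ordered by mean TPM) in each of 24 animals (columns, by group), as log2 CPM minus the gene's mean over the 24 animals, with colours capped at ±2. Ctss, Ctsz, Ctsk and Laptm5 are low in animals 36 to 39 (bold), where Neu1 and Mcoln1 are high, and M6pr is uneven within Ctrl.

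Cathepsin S, an elastinolytic protease that trims the invariant chain in antigen-presenting cells, was present at a lowest, median and highest value of 77.8, 173.9 and 211.6 CPM in Ctrl. After CoCM these were 22.5, 101.2 and 188.4 CPM, after i.p. cells 34.8, 126.2 and 134.8 CPM, and after i.v. cells 49.7, 103.6 and 171.8 CPM. The ranges of the 4 groups overlapped, and the lowest value of each treated group belonged to animal 39, 38 or 36.

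Cathepsin K, a collagenolytic protease, gave 17.3, 42.2 and 55.0 CPM in Ctrl, 6.15, 27.4 and 48.8 CPM after CoCM, 9.93, 28.4 and 37.8 CPM after i.p. cells, and 7.88, 26.3 and 44.9 CPM after i.v. cells. Laptm5, a lysosomal membrane protein of leukocytes, gave 124.7, 202.1 and 282.3 CPM in Ctrl, 16.6, 135.2 and 275.9 CPM after CoCM, 27.3, 162.8 and 231.7 CPM after i.p. cells, and 30.7, 150.4 and 219.5 CPM after i.v. cells. The same animals were lowest in the treated groups for both genes. Even the smallest of these values was well above the level of 0.322 CPM that 3 counts make in the smallest library, a limit that covers counting error only.

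**Figure D2:**
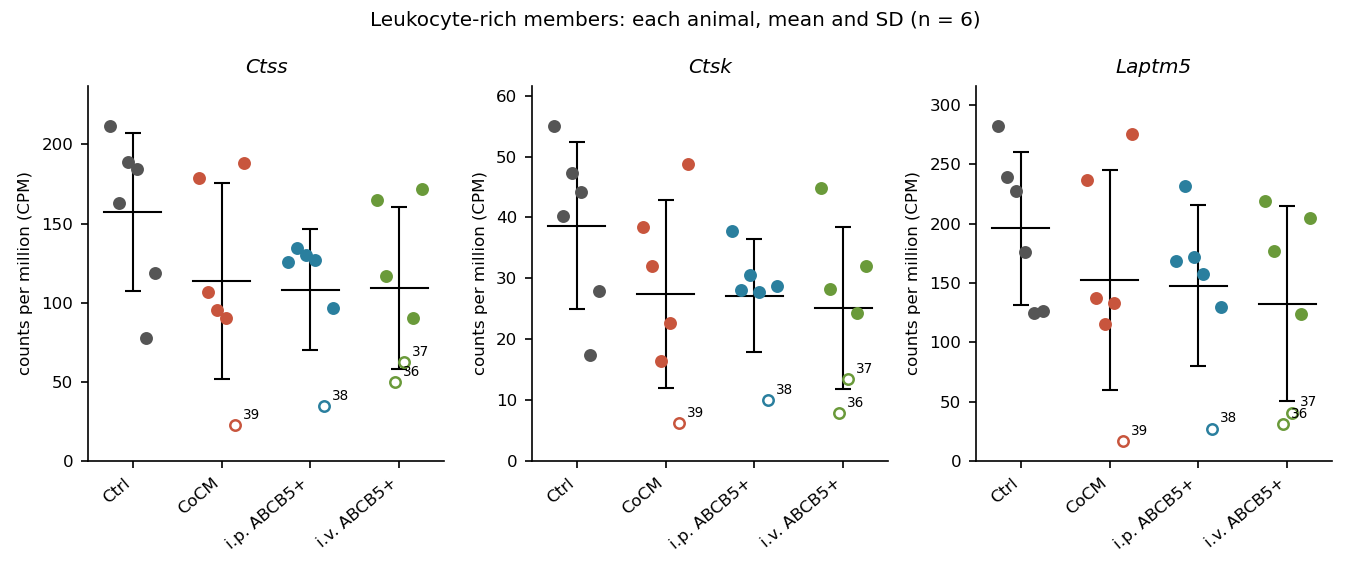
CPM of Ctss, Ctsk and Laptm5 in each animal (points) by group, with the mean and SD of 6 animals (lines and bars) on axes that start at 0. Open points with numbers are animals 36 to 39, and each is among the lowest values of its group in all 3 genes.

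Within an animal, the mean centred log2 CPM of these 3 genes minus that of the other 39 members was 0.47 ± 0.52 in Ctrl (SD, n = 6, range -0.34 to 1.05) and -0.15 ± 1.14 in CoCM (range -2.31 to 0.83). It was -0.098 ± 0.89 for i.p. ABCB5+ (range -1.89 to 0.39) and -0.22 ± 0.87 for i.v. ABCB5+ (range -1.46 to 0.72), so all groups overlapped. The mean without animals 36 to 39 was positive in each treated group, at 0.28 ± 0.48 in CoCM (SD, n = 5), 0.26 ± 0.16 for i.p. ABCB5+ (n = 5) and 0.31 ± 0.34 for i.v. ABCB5+ (n = 4). Each gene was centred on its mean over all animals, so leaving out the lowest animals places the mean of the rest above 0. The sign of these means therefore shows nothing about treatment. Compared with Ctrl (0.47 ± 0.52), the mean of each treated group stayed lower without animals 36 to 39, by less than the SD of Ctrl. The 4 lowest animals were 39 (-2.31), 38 (-1.89), 36 (-1.46) and 37 (-1.08). Across animals the mean of the other 39 members lay between -0.17 and 0.14, whereas that of the leukocyte-rich set ran from -2.42 to 1.06. The mean of the 39 pools members that moved in opposite directions, so it does not show that each was stable. Ctsz, Gm2a and Ppt1 were low in animals 36 to 39, where Neu1 and Mcoln1 were high.

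The next question was which members varied between animals with leukocyte markers and which with proximal tubule markers. It was asked over the 20 animals other than 36 to 39, since animals in separate clusters give no meaningful pooled correlation. Marker levels were the mean centred log2 CPM of each list, which holds no member. In all, 126 correlations were computed for the members, including those with fibroblast and pericyte markers, which were added after the data had been seen, and adjusted p-values were taken over all genes tested against a list.

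Leukocyte markers were correlated positively with 13 of 42 members and negatively with 1 (permutation test of Pearson's r, two-sided, adjusted p below 0.05). Of all genes tested, 9.92% were positive and 5.77% negative by the same rule, and the median r was 0.19 over the members and -0.053 over all genes. Laptm5 had the highest r of 0.96 (p = 1e-05, adjusted p = 0.000461, rho = 0.92 with adjusted p = 0.000605), which was 0.95 without the 2 animals farthest from the median. A p of 1e-05 is the smallest that the 100000 permutations can give. Ctss had r = 0.93 and rho = 0.88 with the same p-values, and r = 0.91 without those 2 animals. Ctsk had r = 0.80 (p = 4e-05, adjusted p = 0.00124, permutation test) and rho = 0.75 (adjusted p = 0.00503), with r = 0.75 without the 2 animals.

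The other 10 positive members lay outside the 3 genes set apart as leukocyte-rich. Among lipid proteins, these were Ppt1 (r = 0.94), which removes palmitate from proteins, Gm2a (r = 0.92), which lifts GM2 ganglioside to its hydrolase, Npc2 (r = 0.81), which hands cholesterol to Npc1, Psap (r = 0.69) and Lipa (r = 0.63), the acid lipase of cholesteryl esters. Among proteases they were Ctsz (r = 0.90), Ctsh (r = 0.68) and Ctsb (r = 0.60), with Gusb (r = 0.75) and progranulin, Grn (r = 0.61), making up the rest. On ranks, Ctsb (adjusted p = 0.0573) and Lipa (adjusted p = 0.0657) no longer passed. Thus 5 of the 7 lipid proteins were in this group, and the remaining pair, Asah1 and Npc1, did not pass the test. The negative member was Arsa, the sulfatase of sulfatides, with r = -0.72 (p = 0.00021, adjusted p = 0.00401, permutation test) and rho = -0.66 (adjusted p = 0.0191). Of the carriers of the PU.1 core, only Ctss was positive. Ctsc (r = -0.19, adjusted p = 0.638) and Gla (r = -0.53, adjusted p = 0.0818) did not pass the permutation test.

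Proximal tubule markers were correlated positively with 11 of 42 members and negatively with 1, where 6.71% of all genes were positive and 3.21% negative. The median r was 0.13 over the members and -0.014 over all genes. The positive members were Tpp1 (r = 0.88), the sialidase Neu1 (r = 0.84), Igf2r (r = 0.82), the β-hexosaminidase subunit Hexa (r = 0.82), Lamp1 (r = 0.81), Lamp2 (r = 0.80), the lysosomal calcium channel Mcoln1 (r = 0.80), Ctsa (r = 0.79), the carboxypeptidase that protects Neu1 in a complex, Ctsl (r = 0.65), the asparaginyl endopeptidase Lgmn (r = 0.62) and Ctsb (r = 0.61). Neu1 had p = 2e-05 and adjusted p = 0.00108 for r, with rho = 0.86 (adjusted p = 0.00122, permutation test). For Mcoln1 rho was 0.81 (adjusted p = 0.00334).

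The permutation test on ranks did not call Igf2r (adjusted p = 0.0532), Ctsb (adjusted p = 0.136) or Lgmn (adjusted p = 0.197). Without the 2 animals farthest from the median, animal 43 of i.v. ABCB5+ and animal 22 of Ctrl, r was 0.30 for Ctsb and 0.32 for Lgmn, so these relations rest on those animals, while it stayed between 0.59 and 0.84 for the other 9 positive members. Ctsd ran the other way, with r = -0.74 (p = 0.00021, adjusted p = 0.0058, permutation test), rho = -0.69 (adjusted p = 0.0208) and r = -0.67 without the 2 animals. Ctsb was the only member that passed with both lists. Of the 4 carriers of the CLEAR core printed above, Lamp1, Igf2r and Mcoln1 were positive and Ctsd was negative, and the r of the fifth carrier, Cln3, was -0.54 and did not pass (adjusted p = 0.0953). Tfeb itself had r = -0.56 and did not pass (adjusted p = 0.0772), but with deviations from group means r was -0.62 and it did (adjusted p = 0.0328, permutation test).

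**Figure D3:**
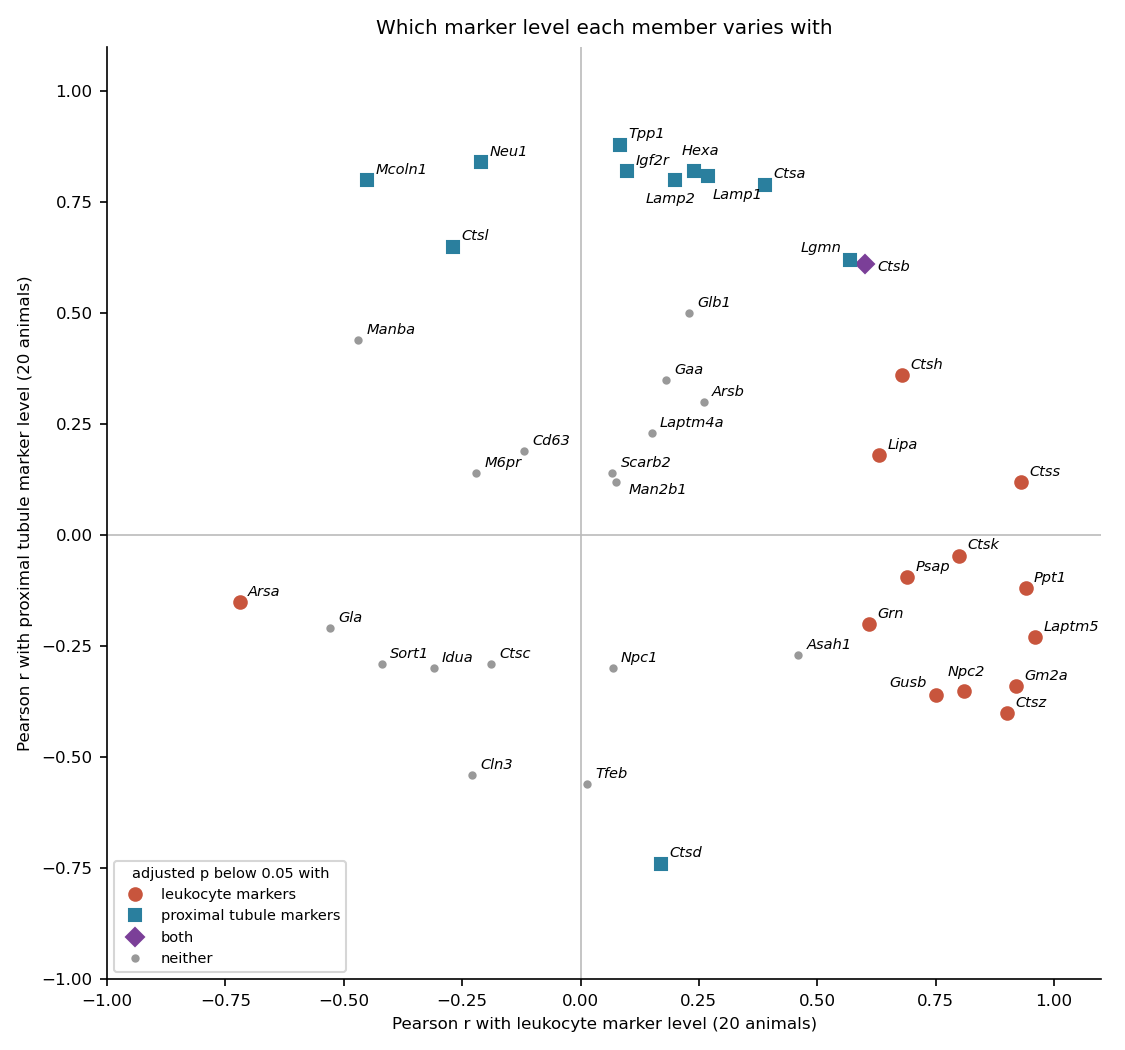
Pearson r of each of 42 members with the leukocyte marker level (horizontal axis) and with the proximal tubule marker level (vertical axis) over 20 animals, with symbols for the lists with which the adjusted p was below 0.05. Laptm5, Ppt1, Ctss, Gm2a and Ctsz lie at the right edge with r of 0.90 or more, Tpp1, Neu1, Igf2r, Hexa and Lamp1 lie at the top, and Ctsd lies alone at the bottom.

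Leukocyte markers and markers of fibroblasts and pericytes varied together in these kidneys. Their levels had r = 0.87 over the 20 animals (rho = 0.84), and 13 members were positive and 1 negative with the fibroblast and pericyte list, against 10.7% and 6.51% of all genes. Ctsk had r = 0.94 with fibroblast and pericyte markers and 0.80 with leukocyte markers. Laptm5 had 0.86 against 0.96, and Ctss 0.88 against 0.93. These differences between lists were not tested. Leukocyte and proximal tubule levels had r = -0.084 (rho = -0.14), with p = 0.723 by permutation. When deviations from group means were used, 13 members were again positive with leukocyte markers and 11 with proximal tubule markers, and 12 in place of 13 with fibroblast and pericyte markers.

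The same members were also examined in the 4 animals left out of the correlations. These animals had low summed leukocyte and high summed proximal tubule markers, so they give no independent check of the correlations. In each animal, the level of a member was compared with those of the other animals of its group, animals 36 to 39 excluded. Of the 13 members positive with leukocyte markers, 11 lay below the range of the others in animal 39, 10 in animal 38, 12 in animal 36 and 11 in animal 37. Among all 1265 genes positive with these markers, the share below the range was 91.3%, 89.1%, 92.6% and 89.6%. The members' median log2 difference was -0.61, -0.23, -0.82 and -0.69, and that of all such genes was -1.57, -1.32, -1.32 and -1.18, in the same order of animals. Psap (2018 CPM, against 1575 to 1843 CPM) and Grn (448.7 CPM, against 352.7 to 401.9 CPM) instead lay above the range in animal 38, as did 2.21% of all such genes. Values below the range were thus no more frequent among these members than among all such genes, and the members' median difference was smaller.

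Of the 11 members positive with proximal tubule markers, 7 lay above the range of the others in animal 39, 8 in animal 38, 3 in animal 36 and 7 in animal 37. The shares among all 856 such genes were 87.5%, 77.3%, 88.1% and 90.7%. Ctsb and Lgmn lay below the range in animal 39 and Lgmn in animal 38, as did 1.40% and 3.39% of all such genes. The median log2 difference of the members was 0.13, 0.37, 0.11 and 0.36, and that of all such genes 0.78, 0.60, 1.0 and 1.16. Neu1 was 167.9 CPM in animal 39, 155.9 CPM in animal 38, 193.4 CPM in animal 36 and 221.2 CPM in animal 37, and 68.8 to 119.2 CPM in the other 20. Mcoln1 was 143.6, 134.1, 159.9 and 194.3 CPM in the same 4 animals and 59.9 to 99.0 CPM in the others. For both genes the 4 animals lay above all of the others. Ctsd was 1668, 2018, 1171 and 1009 CPM in these animals, the lowest of its group in each of animals 37, 38 and 39.

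CoCM was compared with no treatment to see whether the members changed. By the edgeR quasi-likelihood F-test, 0 of 42 members had an adjusted p below 0.05 (a call in what follows), as did 0.00783% of all genes tested. At an unadjusted p below 0.05 there were 6 members, against 11.9% of all genes. Of these, 2 were higher (5.96% of all genes) and 4 lower (5.96% of all genes). The groups' ranges overlapped in every member, and were separate in 1.38% of all genes. The members' median log2 fold change was -0.10 (0.0088 over all genes), with 15 of 42 above 0 (51.4% of all genes), and without animals 36 to 39 it was -0.10 with 13 of 42 above 0 (49.3% of all genes).

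The smallest p belonged to Arsb, the sulfatase that removes sulfate from dermatan sulfate and chondroitin sulfate. Its lowest, median and highest values were 61.9, 73.5 and 87.3 CPM in CoCM and 87.1, 98.5 and 115.3 CPM in Ctrl. In CoCM 5 of 6 animals lay below the Ctrl range. The means were 75.4 ± 10.1 and 99.7 ± 9.50 CPM (SD, n = 6), and the log2 fold change was -0.40 ± 0.11 (SE, edgeR p = 0.00103, adjusted p = 0.216, exact permutation p = 0.00433). DESeq2 gave -0.41 with an adjusted p of 0.0484, and limma voom with sample quality weights -0.41 with 0.0443, so the call depends on the tool. Of all genes, DESeq2 called 0.673% and the weighted fit 1.43%. Over all alternatives that kept every animal of these groups, the adjusted p of Arsb ran from 0.0443 to 0.470.

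Scarb2, a lysosomal membrane protein that also acts as a sorting receptor, gave 26.7, 40.7 and 46.7 CPM in CoCM and 44.0, 57.3 and 70.2 CPM in Ctrl. Its log2 fold change was -0.60 ± 0.22 (SE, edgeR adjusted p = 0.348, exact permutation p = 0.00866), and 4 of 6 CoCM animals lay below the Ctrl range. M6pr, the cation-dependent mannose 6-phosphate receptor, gave 56.2, 117.3 and 132.3 CPM in CoCM and 20.2, 35.6 and 95.8 CPM in Ctrl. Its log2 fold change of 1.03 ± 0.37 (SE, edgeR adjusted p = 0.338, exact permutation p = 0.0303) was the largest of any member in any comparison, and 4 of 6 CoCM animals lay above the Ctrl range. The rat assembly GRCr8 holds a pseudogene named after M6pr, whose reads cannot be told apart from its own here. In that assembly 18 of the 42 members, Arsb, Neu1 and Mcoln1 among them, overlap another gene, and how the counting treated strand was not given in the sources used here.

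Tfeb was 78.3 ± 6.75 CPM after CoCM and 68.9 ± 7.35 CPM in Ctrl (SD, n = 6), with a log2 fold change of 0.18 ± 0.078 (SE, edgeR adjusted p = 0.383, exact permutation p = 0.0476). The leukocyte-rich genes were lower on average but within the spread. The log2 fold change was -0.47 ± 0.40 for Ctss (SE, edgeR adjusted p = 0.591, exact permutation p = 0.214), -0.49 ± 0.42 for Ctsk (adjusted p = 0.588) and -0.36 ± 0.53 for Laptm5 (adjusted p = 0.747). Without animals 36 to 39 these were -0.26, -0.29 and -0.13, whereas Arsb, Scarb2, M6pr and Tfeb gave -0.39, -0.68, 1.15 and 0.16. Arsb, Scarb2 and M6pr had r between -0.22 and 0.30 with either marker list.

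Of the cell markers in the same contrast, 0 were called by edgeR in any list. None of the 20 leukocyte markers had a positive fold change (median log2 fold change -0.36), nor did any of the 10 fibroblast and pericyte markers (median -0.59). With animals 36 to 39 left out, these medians were -0.17 with 5 of 20 above 0 and -0.39 with 0 of 10. All 7 endothelial markers were lower on average (median -0.43, summed CPM 325.3 to 646.6 in CoCM and 561.5 to 691.2 in Ctrl), 4 of them at an unadjusted p below 0.05. All 10 collecting duct markers were higher on average (median 0.37), as were all 6 markers of the loop and distal tubule (median 0.33). Without the 4 animals the medians were -0.44, 0.23 and 0.14 in the same order. Of 16 proximal tubule markers, 10 were higher on average (median 0.087), and 4 were lower at an unadjusted p below 0.05. Their mean centred log2 CPM was -0.19 in CoCM, -0.33 without the 4 animals and -0.15 in Ctrl. The part of these markers in the values of the members was not tested.

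**Figure D4:**
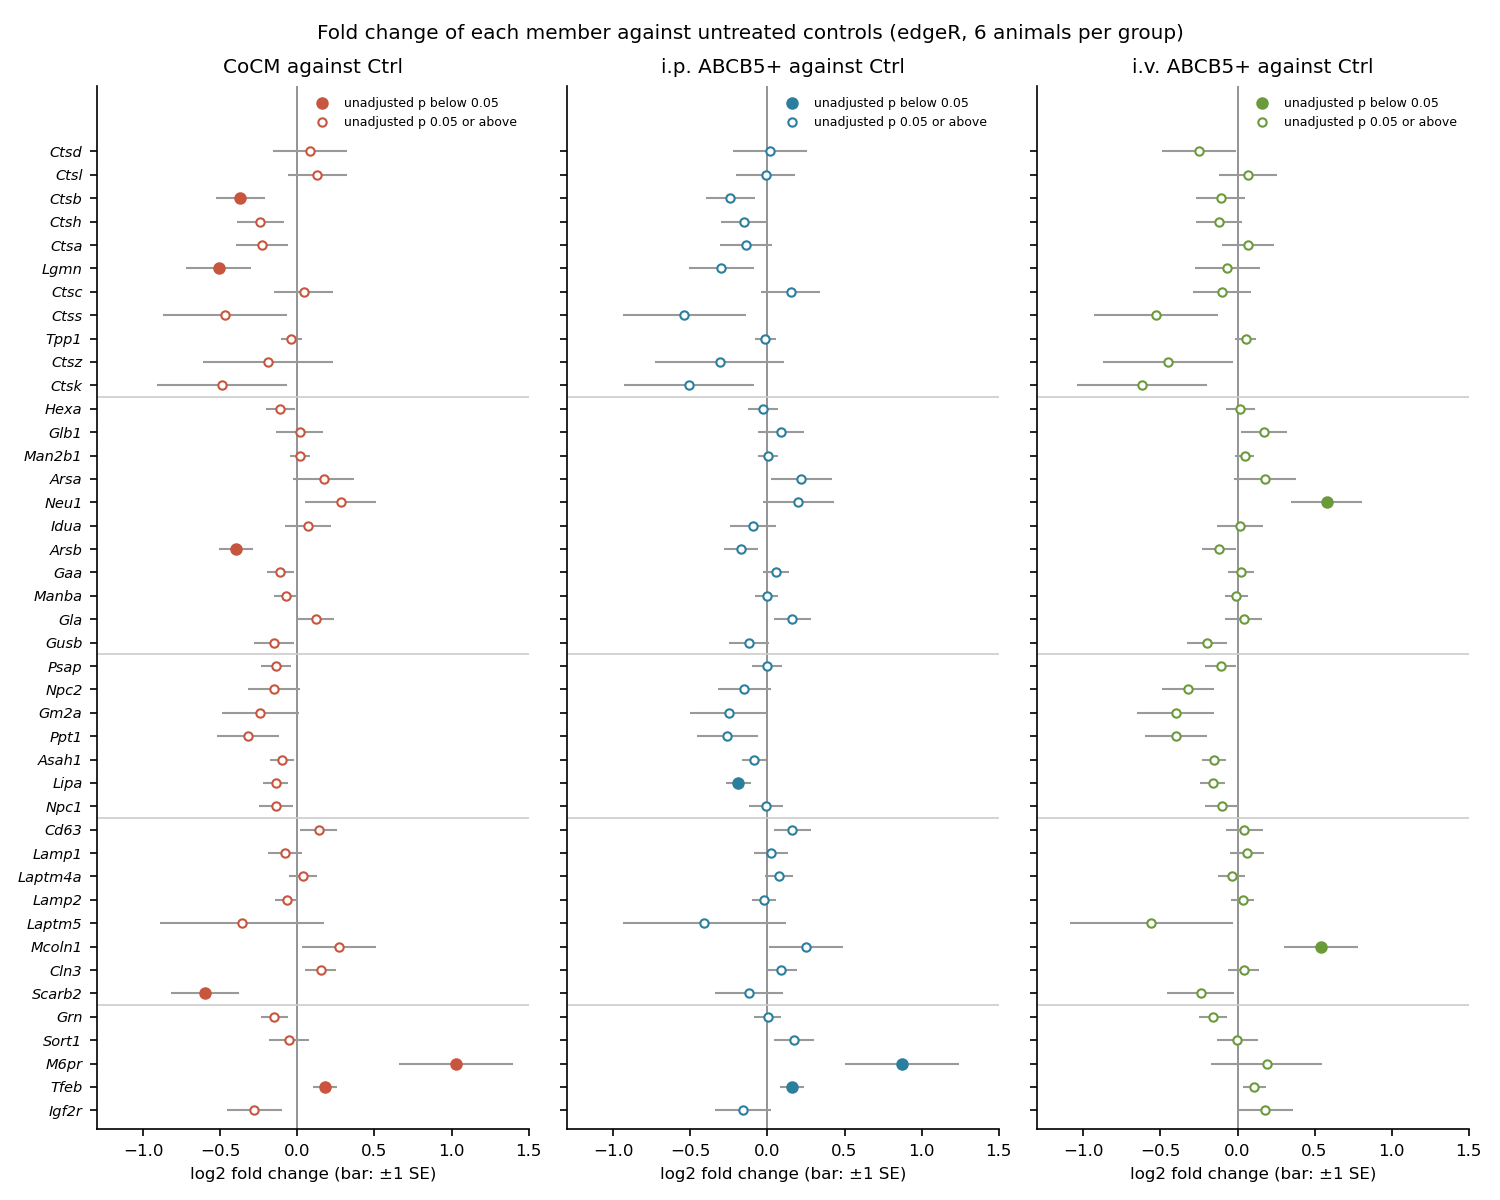
Log2 fold change (points) and its SE (bars) of each of 42 members against Ctrl in 3 panels, for CoCM, for i.p. cells and for i.v. cells, by edgeR with 6 animals per group. Filled points mark an unadjusted p below 0.05 (6, 3 and 2 members), and 0 members passed after adjustment over all genes. The 3 panels share the same Ctrl animals.

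For intraperitoneal cells against no treatment, again 0 of 42 members were called by edgeR, as were 0.0% of all genes. At an unadjusted p below 0.05 there were 3 members, against 1.77% of all genes. M6pr and Tfeb were higher (1.26% of all genes) and Lipa was lower (0.509%). Ranges were separate in 0 members and 0.047% of all genes. M6pr gave 55.5, 92.9 and 131.4 CPM as lowest, median and highest value, with a log2 fold change of 0.87 ± 0.37 (SE, edgeR adjusted p = 0.978, exact permutation p = 0.0346). These values overlapped with those of Ctrl, and 2 of 6 animals lay above them. Lipa gave 162.2, 187.0 and 209.7 CPM against 198.3, 203.2 and 233.7 CPM in Ctrl, with a log2 fold change of -0.19 ± 0.081 (SE, edgeR adjusted p = 0.978, exact permutation p = 0.0238). For Lipa 5 of 6 treated animals lay below the Ctrl range.

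Tfeb had a log2 fold change of 0.16 ± 0.078 in this comparison, and Arsb one of -0.17 ± 0.11 (adjusted p = 0.978 for both by edgeR). When animals 36 to 39 were left out, M6pr, Tfeb, Lipa and Arsb gave 0.85, 0.13, -0.14 and -0.13. Ctss, Ctsk and Laptm5 gave -0.54 ± 0.40, -0.51 ± 0.42 and -0.41 ± 0.53, and -0.35, -0.33 and -0.18 without animals 36 to 39. The members' median log2 fold change was -0.013 (0.0037 over all genes), with 17 of 42 above 0, and -0.048 with 13 of 42 without those animals. Leukocyte markers had a median of -0.40 and 1 of 20 above 0, and fibroblast and pericyte markers one of -0.46 with 0 of 10. Loop and distal tubule markers (median 0.53, 6 of 6 above 0) and collecting duct markers (median 0.48, 10 of 10) were on the other side. With the 4 animals left out, these medians were -0.21, -0.27, 0.34 and 0.21. Of 16 proximal tubule markers, 9 were above 0 (median 0.10). No marker was called by edgeR, and the part of the markers in the values was not tested.

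For intravenous cells against no treatment, 0 of 42 members were called by edgeR, as were 0.0% of all genes. Neu1 and Mcoln1, both higher, had an unadjusted p below 0.05, and 0 members were lower by that rule. Of all genes 5.78% passed it, 4.44% higher and 1.34% lower. Ranges were separate in 0 members and 0.11% of all genes. Neu1, which removes sialic acid from glycoconjugates, gave 89.9, 108.4 and 221.2 CPM against 68.8, 87.8 and 119.2 CPM in Ctrl, and its log2 fold change was 0.58 ± 0.23 (SE, edgeR adjusted p = 0.673, exact permutation p = 0.0866). Mcoln1 gave 77.2, 87.3 and 194.3 CPM against 59.9, 79.9 and 96.1 CPM, with 0.54 ± 0.24 (SE, edgeR adjusted p = 0.673, exact permutation p = 0.136). In both genes only animals 36 and 37 lay above the Ctrl range, and without animals 36 to 39 the log2 fold changes were 0.15 and 0.074.

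Among lower means, Ppt1 was 73.6 ± 24.4 CPM against 97.4 ± 14.9 CPM (SD, n = 6; log2 fold change -0.40 ± 0.20, edgeR adjusted p = 0.673, exact permutation p = 0.0736), and -0.15 without animals 36 to 39. Lipa gave -0.16 ± 0.081 (SE, edgeR adjusted p = 0.673, exact permutation p = 0.0498), and -0.11 without them. Ctss, Ctsk and Laptm5 gave -0.53 ± 0.40, -0.62 ± 0.42 and -0.56 ± 0.53, and -0.21, -0.26 and -0.11 without those animals. The members' median log2 fold change was -0.023 (0.013 over all genes), with 19 of 42 above 0, and -0.035 with 14 of 42 without those animals. In the same contrast the 20 leukocyte markers had a median of -0.49 (0 above 0), the 10 fibroblast and pericyte markers one of -0.60 (0 above 0) and the 16 proximal tubule markers one of 0.81 (13 above 0). Without animals 36 to 39 these were -0.11 (3 above 0), -0.19 (1 above 0) and 0.026 (10 above 0). The 8 injured tubule markers had a median of -0.48 (0 above 0). Their mean centred log2 CPM was -0.44 in i.v. ABCB5+, 0.47 without those animals and 0.47 in Ctrl. No marker was called by edgeR, and their part in the values was not tested.

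**Figure D5:**
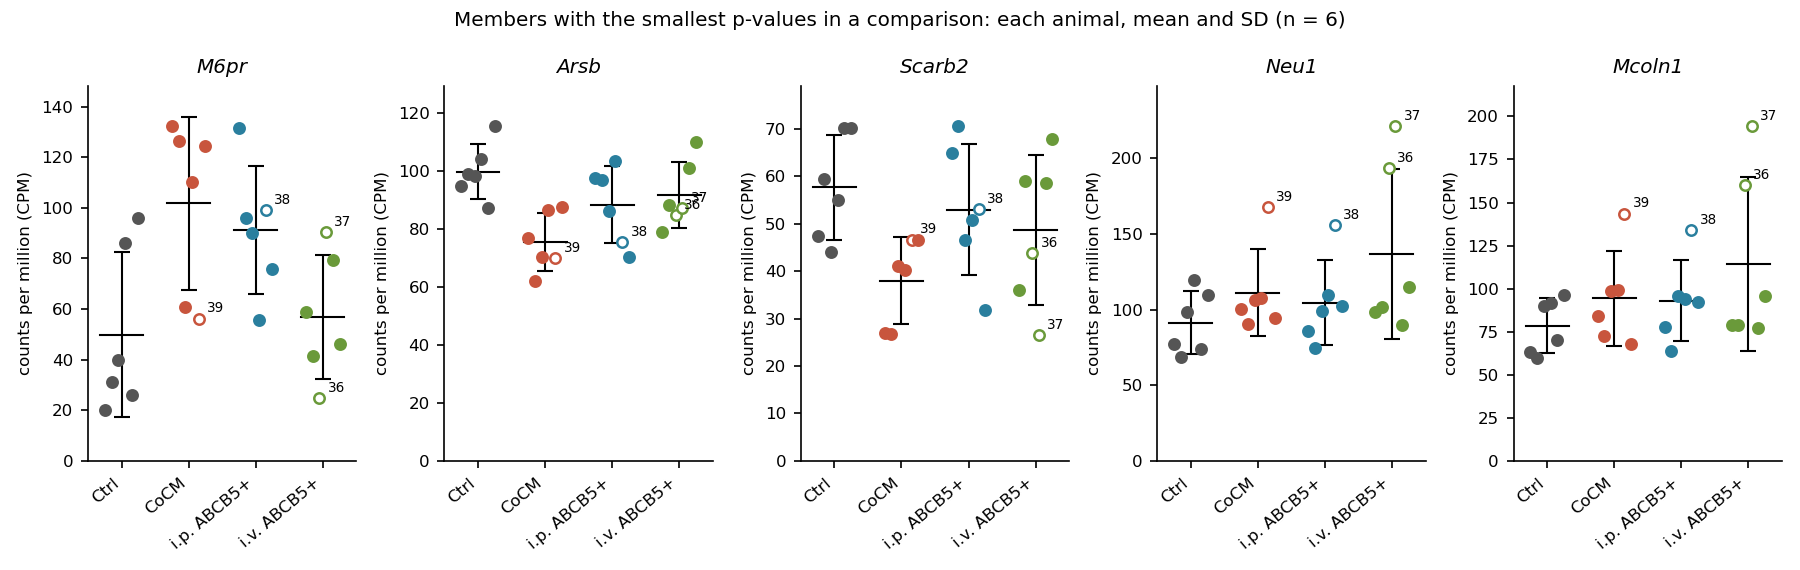
CPM of M6pr, Arsb, Scarb2, Neu1 and Mcoln1 in each animal (points) by group, with the mean and SD of 6 animals (lines and bars) on axes that start at 0. Open points with numbers are animals 36 to 39. In Arsb 5 of 6 CoCM animals lie below the Ctrl range, and in Neu1 and Mcoln1 animals 36 and 37 are the only i.v. ABCB5+ animals above it.

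The lipid hydrolases, activators and sterol transfer proteins were on one side in each comparison with Ctrl, with 0 of 7 above 0 in each. Their log2 fold changes lay between -0.32 and -0.097 in CoCM (median -0.14), between -0.26 and -0.0046 with i.p. cells (median -0.15) and between -0.40 and -0.10 with i.v. cells (median -0.16). These comparisons share the Ctrl animals, and 0 of the 7 were called in any of them. Of all genes 51.4%, 51.0% and 52.6% were above 0. Ppt1, Gm2a, Npc2, Psap and Lipa were among the members positive with leukocyte markers. Of those markers 0, 1 and 0 of 20 were above 0 in the same comparisons, and their part was not tested. Cathepsins and other proteases had medians of -0.23, -0.15 and -0.11, with 3, 2 and 3 of 11 above 0. Glycosidases and sulfatases had medians of 0.014, 0.0011 and 0.025, with 6, 6 and 8 of 11 above 0. For membrane proteins, medians were -0.017, 0.05 and 0.037. Sorting receptors and regulators had medians of -0.053, 0.16 and 0.11, with 2, 4 and 3 of 5 above 0. With limma on log2(TPM + 1), which alters both test and scale, all medians of glycosidases and sulfatases and of membrane proteins were negative. They were -0.11, -0.058 and -0.06 for glycosidases and sulfatases and -0.12, -0.019 and -0.044 for membrane proteins. On that scale the median of all genes shifted too, to -0.097, -0.049 and -0.064. Without animals 36 to 39 the medians were -0.098, -0.0057 and 0.035 for glycosidases and sulfatases, and -0.055, -0.018 and -0.027 for membrane proteins. The lipid proteins kept 0 of 7 above 0 under each scaling and without animals 36 to 39 (medians -0.12, -0.11 and -0.10), except for 1 of 7 in i.v. ABCB5+ with sample quality weights. The proteases had negative medians under each of these alternatives.

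Intraperitoneal and intravenous cells were compared directly to ask whether the route made a difference. By edgeR, 0 of 42 members were called (0.0% of all genes) and 0 had an unadjusted p below 0.05 (2.14% of all genes, 0.689% higher and 1.46% lower in i.p.), with ranges separate in 0 members (0.0626% of all genes). M6pr was 91.3 ± 25.3 CPM in i.p. ABCB5+ and 56.8 ± 24.6 CPM in i.v. ABCB5+ (SD, n = 6), a log2 difference of 0.68 ± 0.36 (SE, edgeR adjusted p = 1.0, exact permutation p = 0.0411), with 3 of 6 i.p. animals above the i.v. range. Grn gave 0.16 ± 0.089, Igf2r -0.34 ± 0.18 and Neu1 -0.39 ± 0.23, and without animals 36 to 39 they gave 0.023, -0.17 and -0.098. Ctss, Ctsk and Laptm5 gave -0.015 ± 0.40, 0.11 ± 0.42 and 0.15 ± 0.53, all smaller than their errors, and without those animals -0.14, -0.075 and -0.069. M6pr stayed at 0.68. Over all 4 groups, 0 members were called by the edgeR F-test (0.0% of all genes). Arsb and M6pr were the members with an unadjusted p below 0.05 in that test (4.71% of all genes).

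Other genes of the lysosome were counted in the same fits, and 0 were called by edgeR in any of the 4 pairwise comparisons. Of 21 subunits of the V-ATPase, the proton pump that acidifies the lysosome and that intercalated cells also carry on their plasma membrane, 19, 19 and 20 had a log2 fold change above 0 against Ctrl in CoCM, with i.p. cells and with i.v. cells. The medians were 0.20, 0.24 and 0.14, and without animals 36 to 39 the counts were 16, 17 and 12 and the medians 0.12, 0.049 and 0.0053. At an unadjusted p below 0.05 there were 0 higher in any of them, and 1 lower, Atp6v0a2 in CoCM (-0.34 ± 0.15, edgeR adjusted p = 0.383). The subunit Atp6v1g3, which is known from intercalated cells and was also used as a collecting duct marker, gave 0.57 ± 0.28 in CoCM and 0.54 ± 0.28 in i.p. ABCB5+ (edgeR adjusted p = 0.427 and 0.978), and 0.34 and 0.24 without animals 36 to 39.

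Among 27 other hydrolases and cofactors, 7, 14 and 15 were above 0, with medians of -0.076, 0.0066 and 0.016, and without animals 36 to 39 there were 8, 10 and 10, with medians of -0.13, -0.053 and -0.0072. Acp2, a lysosomal acid phosphatase, was 111.1 ± 34.2 CPM in i.v. ABCB5+ and 85.6 ± 11.5 CPM in Ctrl (SD, n = 6; log2 fold change 0.38 ± 0.16, edgeR adjusted p = 0.673), and the log2 fold change was 0.06 without those animals. Among 19 other membrane proteins and transporters, 10, 12 and 11 were above 0, with medians of 0.0052, 0.069 and 0.05. Among 20 regulators and proteins that dock mTORC1 at the lysosome, 13, 12 and 13 were above 0, with medians of 0.093, 0.042 and 0.059. Without animals 36 to 39, these medians were -0.068, 0.011 and 0.035 for the membrane proteins and transporters and 0.013, 0.0021 and -0.026 for the regulators.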

How the data were processed

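RNA from whole left kidneys was sequenced on a BGISEQ-500. The submitters' processing notes name Trim Galore 0.6.4, kallisto 0.4.6 and the rat build rn6, and the study's methods name a human transcript package. For each animal the authors deposited estimated counts, not normalized, and TPM values, scaled to transcript length and library total, for 17334 Entrez identifiers. Of these, 17179 had a symbol in the RefSeq gene table (GRCr8). Gene and promoter positions are those of GRCr8 and not of the files' build.

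Groups came from the sample labels. Estimated counts were rounded, filtered with filterByExpr by group, scaled by TMM and fitted over all 24 animals and 4 groups in edgeR 4.0.16 (R 4.3.3) with the quasi-likelihood F-test. P-values were adjusted over all 12778 genes tested by the Benjamini-Hochberg method, with a threshold of 0.05. Exact permutation tests were two-sided over the 924 divisions of 12 animals (smallest p 0.00216, 28 tests, not adjusted). They were run for Ctss, Ctsk and Laptm5 and for up to 2 members per direction with the smallest p in each pairwise comparison, the rule by which members were named. Correlation p-values came from 100000 permutations and were adjusted over all genes tested, not over the members as first designed. Log2 CPM used a prior count of 2.

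On counts simulated from these libraries with 200 genes changed 4-fold, edgeR called most of the changed genes and few others. That change is larger than the fold change of any member here, and smaller changes were not simulated. Alternatives were DESeq2 1.42.0, RLE size factors, other filters, fits of the compared groups, limma 3.58.1 on log2(TPM + 1), leaving out each animal, leaving out animals 36 to 39, and limma voom with sample quality weights, the last pair added after seeing the data. The members and all lists were chosen with earlier results of these data known.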

Additional observations from a re-analysis of the deposited data

Results flagged for a closer look

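In a group of 6, a value was taken as far from the others where its gap to the nearest exceeded Dixon's critical share of the group's range for 6 values. This held for 17 of 172 combinations of a group with a member or with the difference between leukocyte-rich and other members, where chance gives about 1 in 20. The 17 fell in 7 animals, with 7 in animal 38 and 4 in animal 39. Explanations were not weighed.

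Animal 38 of i.p. ABCB5+ was far above its group in Ctsa (1380 CPM), Glb1 (367.0 CPM), Arsa (174.1 CPM) and Lamp1 (1751 CPM). It was far below in Ctsk (9.932 CPM), Npc2 (193.4 CPM) and the difference between leukocyte-rich and other members (-1.89). Animal 39 of CoCM was far above its group in Glb1 (314.3 CPM), Neu1 (167.9 CPM) and Lamp1 (1395 CPM), and far below in that difference (-2.31). Glb1 and Lamp1 were thus set apart in both animals and in the same direction. Glb1 encodes the β-galactosidase whose activity is used as a marker of senescent cells.

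In animal 37 of i.v. ABCB5+, Ctsc, the protease that activates granule serine proteases of leukocytes, was far below its group (343.8 CPM) and Cd63 far above (777.2 CPM). Among animals outside the 4 that stood apart on the first principal component, animal 23 of Ctrl was high in Ctsc (803.0 CPM), animal 40 of CoCM was high in Psap (1948 CPM), animal 34 of CoCM was low in Cln3 (44.35 CPM) and animal 41 of i.p. ABCB5+ was low in Manba (130.8 CPM).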

How the results depend on the processing

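The number of members called was 0 in every pairwise comparison and over all 4 groups, and stayed 0 whichever animal was left out. It was 1 in CoCM with DESeq2 and 1 with limma voom and sample quality weights, in each case Arsb (log2 fold change -0.41 under both, adjusted p = 0.0484 and 0.0443), where these tools called 0.673% and 1.43% of all genes. The cause was not tested. At an unadjusted p below 0.05 there were 6 members in CoCM (11.9% of all genes), 12 with limma on log2(TPM + 1) (10.3%), 15 with sample quality weights (22.2%) and 3 without animals 36 to 39 (16.9%). With 1 animal left out, this count ran from 3 to 7 in CoCM and from 0 to 3 with i.p. cells. It ran from 0 to 6 with i.v. cells and from 0 to 3 in i.p. against i.v. ABCB5+. Of 224 values of single members under alternatives other than leaving out 1 animal, 218 kept their direction and their side of the threshold, and of 336 with 1 animal left out 325 did. Those that changed sign all concerned the leukocyte-rich genes in i.p. against i.v. ABCB5+. Without animals 36 to 39, Ctsk was -0.075 and Laptm5 -0.069. Ctss was 0.028 with limma on log2(TPM + 1) and 0.063 with sample quality weights. With 1 animal left out, Ctsk ran from -0.076 to 0.37, Ctss from -0.17 to 0.17 and Laptm5 from -0.052 to 0.37. With deviations from group means, the members negative with proximal tubule markers were 2 in place of 1 (Tfeb added), those negative with fibroblast and pericyte markers 2 in place of 1 (Manba added), and those positive with the latter 12 in place of 13 (Lgmn lost, adjusted p from 0.048 to 0.0643). No paired analysis was possible because no animal number occurs in more than 1 group. The closest calls rest on groups of 6 animals with total counts of 9304630 to 14125457. The smallest change that such groups can detect was not estimated. In CoCM, edgeR did not call Arsb at 75.4 ± 10.1 CPM against 99.7 ± 9.50 CPM in Ctrl (SD, n = 6).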
